A study of Zea mays with 448 samples.

Results

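F1 hybrids of the maize inbred Mo17 and the teosinte inbreds TIL01, TIL09 and TIL14 were chosen from the labels: every F1 library of these crosses in which the maize allele held 45 to 55% of the reads. They made up 34 of the 448 samples of the series, or 17 libraries that were each sequenced on 2 lanes. Of these libraries 5 came from immature ears (3 of Mo17xTIL09 and 2 of Mo17xTIL14), 6 from seedling leaves and 6 from seedling stems with the shoot apical meristem (2 of each of the 3 crosses in both tissues). They were set beside the F1 hybrids of the maize inbreds B73, CML103, Ki3, Oh43 and W22 by the same teosinte parents, which gave 102 samples or 51 libraries: 7 crosses in ear and 10 crosses each in leaf and stem. Plants were raised in growth chambers and then a greenhouse, and each F1 ear sample was a single ear with silks just visible.

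Teosinte is the wild progenitor of maize. In an F1 hybrid the maize allele and the teosinte allele of a gene sit in the same nuclei and meet the same trans-acting factors, so unequal reads of the alleles measure a cis effect, a difference carried on the chromosome itself. A cis effect is given here as the log2 ratio of Mo17 (or other maize) allele reads to teosinte allele reads at segregating sites, the positions of a gene's transcripts where the parents of a cross differ. A positive value therefore means more reads of the maize allele. Mo17 is a single inbred line, so what its F1 hybrids share is 1 maize haplotype, and each teosinte inbred likewise brought 1 haplotype.

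The Mo17 F1 libraries held between 1352554 and 2366174 reads at segregating sites (median 1752577), against 815215 to 2559128 (median 1572520) in the F1 libraries of the other inbreds. The maize share of reads was 50.4 to 51.3% in the Mo17 F1s and 47.9 to 53.6% in the others, and 97.6 to 98.8% of the Mo17 sites with at least 20 reads showed both alleles. The libraries of a further Mo17 cross, Mo17xTIL25, had maize shares of 96.3% or more and 2 of B73xTIL01 had 80.7% and 80.1%, and neither set entered the comparisons below, except in the alternative with libraries of any maize share, which takes in those of B73xTIL01. Tissue markers were checked in Mo17xTIL09 and Mo17xTIL14 (5 ear, 4 leaf and 4 stem libraries). Summed leaf markers (8 genes of the C4 cycle and Rubisco, of which 5 had reads in leaf and 4 each in ear and stem) had 1572 to 42241 RPM (reads scaled by the library total at segregating sites) in leaves, 53.8 to 92.4 in ears and 45.9 to 199.6 in stems, while the ear list (zagl1, kn1, ra1 and ra3) reached at most 252 in ears, 10.1 in leaves and 136 in stems and was at 0 in at least 1 library of each tissue. The stem list (kn1 and lignin genes) did not set stems apart, with medians of 282 RPM in stems, 267 in ears and 111 in leaves. Its highest library was at 765 in leaves and 684 in stems. Libraries of a cross differed by more than counting noise, with a chi-square per degree of freedom of 2.23 to 4.86 in ears. It was 38.7 to 96.6 in leaves and 12.6 to 15.4 in stems.

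In all 3 tissues the Mo17 allele was the higher one more often than the teosinte allele. A gene was tested where the Mo17 crosses of a tissue together had at least 100 reads and each of them at least 10. It was called where its false discovery rate (FDR, the Benjamini-Hochberg adjusted p of edgeR's quasi-likelihood test on libraries) was below 0.005. Ears had a higher Mo17 allele in 793 of 7901 genes (10%) and lower in 457 (5.78%). In leaf it was higher in 497 of 6815 genes (7.29%) and lower in 236 (3.46%). In stem it was higher in 714 of 6905 genes (10.3%) and lower in 386 (5.59%). The Mo17 allele was thus the higher one in 63.4% (ear), 67.8% (leaf) and 64.9% (stem) of the called genes, whereas the median log2 ratio over all tested genes was only 0.04 (ear) or 0.06 (leaf and stem). These calls are on the mean over the teosinte parents and need not hold in each cross. Of the 1250 (ear), 733 (leaf) and 1100 (stem) called genes, 409, 251 and 391 also differed among the teosinte parents in the test given below.

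**Figure D1:**
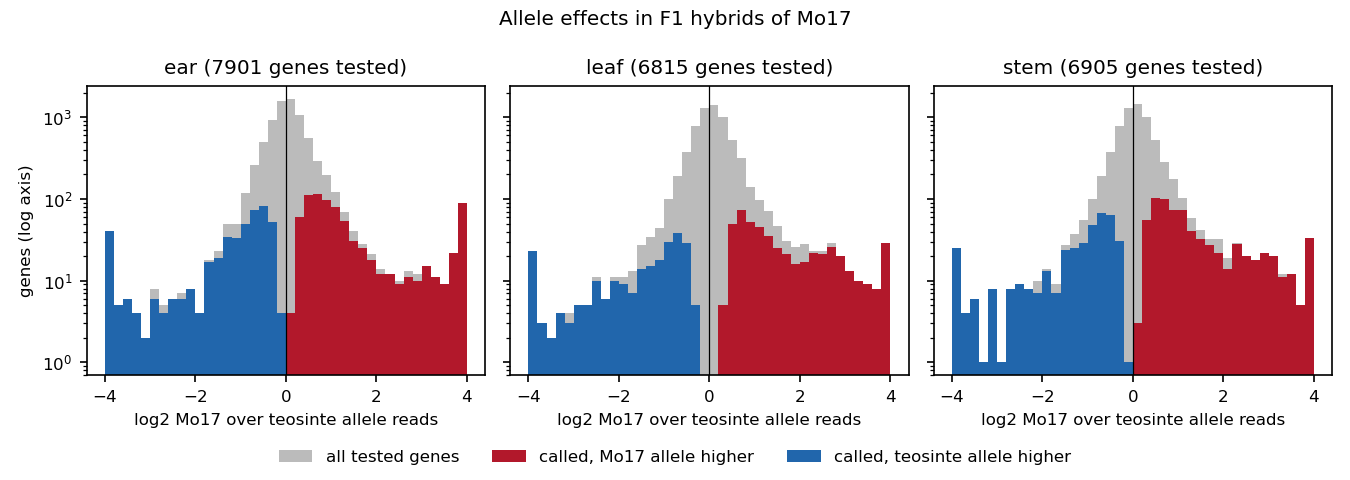
Number of genes (log axis) by log2 ratio of Mo17 to teosinte allele reads, averaged over the teosinte parents, in ear, leaf and stem; grey bars are all tested genes, red bars genes called with the Mo17 allele higher and blue bars genes called with the teosinte allele higher, and ratios beyond 4 in size are gathered in the end bars. Red bars hold 793 (ear), 497 (leaf) and 714 (stem) genes, against 457, 236 and 386 genes in the blue bars.

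Most genes lay close to equal expression of the alleles. The median size of the log2 ratio was 0.26 over all tested genes in each tissue, and 0.97 (ear), 1.28 (leaf) and 1.00 (stem) over the called genes. Of 1975 genes called in at least 1 tissue, 336 were called in every tissue (6047 genes were tested in all of them), 230 of these with the Mo17 allele higher throughout, 101 with the teosinte allele higher throughout and 5 with mixed signs. Single crosses of Mo17 had allele ratios of much the same spread as crosses of the other inbreds. Among genes with at least 100 reads in a cross, 6.82 to 8.93% (ear), 8.40 to 9.38% (leaf) and 8.17 to 9.42% (stem) were at least 2-fold apart in Mo17 crosses, against 7.03 to 9.29%, 7.59 to 15.0% and 6.08 to 12.2% in crosses of the other inbreds, so the Mo17 crosses lay within the range of the others in leaf and stem and overlapped it in ear.

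The inbred parents, sequenced apart, mostly leaned the same way. Among genes with calls in the F1s and reads in the parents, the log2 ratio of the Mo17 inbred to the teosinte inbreds had the sign of the F1 ratio in 1133 of 1231 ear genes (92.0%), 670 of 702 leaf genes (95.4%) and 956 of 1052 stem genes (90.9%). Over all tested genes the shares were 69.4%, 69.1% and 67.2% for the same tissues. These are descriptions, as no test of parents was made.

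Genes with a higher Mo17 allele were unevenly spread over the chromosomes. On chromosome 6 the share of tested genes called with the Mo17 allele higher was 16.2% for ears, 13.2% for leaves and 18.4% for stems, and the other chromosomes had 7.44 to 11.7% (ear), 4.00 to 9.51% (leaf) and 6.51 to 13.4% (stem). The teosinte allele showed no such excess there, being called higher in 5.22%, 2.71% and 4.55% of the genes of chromosome 6. Chromosome 6 was singled out after its values were seen and no test was made of it.

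The excess on chromosome 6 went with TIL09 and TIL01 and not with TIL14. Genes with at least 100 reads in the cross had a Mo17 allele at least 2-fold higher on chromosome 6 in 14.8% (ear), 15.3% (leaf) and 14.6% (stem) of cases in Mo17xTIL09 and in 10.6% (leaf) and 9.01% (stem) in Mo17xTIL01, but in 2.19%, 2.77% and 2.94% in Mo17xTIL14. In Mo17xTIL01 chromosome 2 stood beside it, with 11.6% in leaf and 9.23% in stem. Crosses of other inbreds by TIL09 had 12.7% (Oh43), 9.39% (Ki3) and 5.88% (B73) on chromosome 6 in ear, so the high value was not limited to the Mo17 crosses. Some of these other crosses had chromosomes that stood further apart: the teosinte allele was at least 2-fold higher in 28.5 to 39.1% of chromosome 10 genes in W22 crosses, and the maize allele in 25.6% of chromosome 4 genes in Oh43xTIL09 leaves, while no Mo17 cross passed 15.3% on any chromosome.

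**Figure D2:**
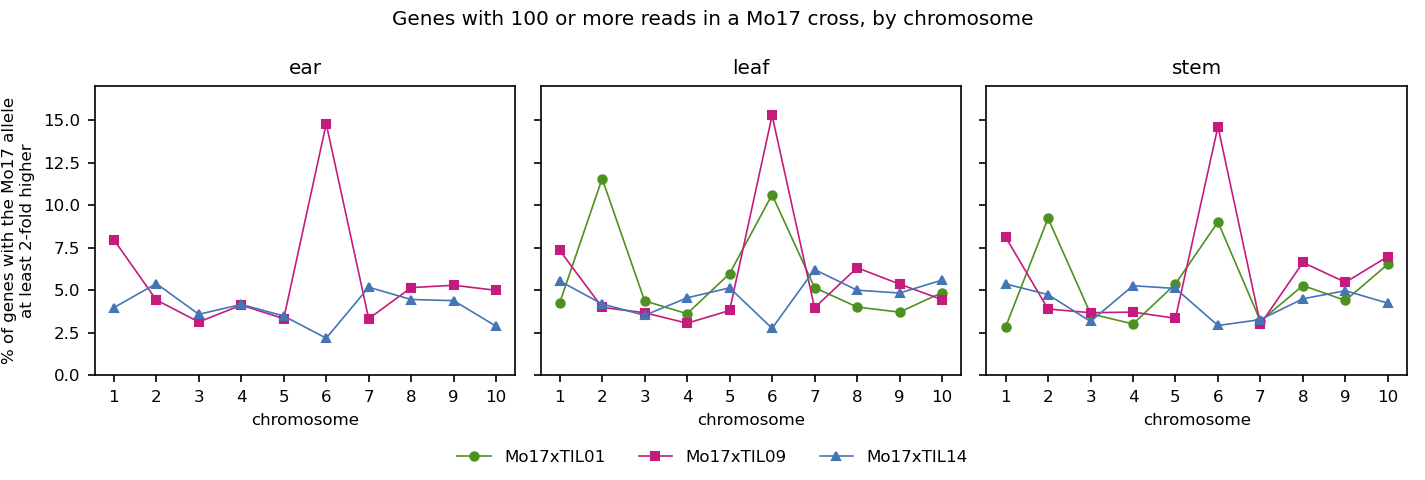
Percentage of genes with a Mo17 allele at least 2-fold higher than the teosinte allele, by chromosome, for each Mo17 cross in ear, leaf and stem, over genes with at least 100 reads in the cross; each point is 1 cross. Mo17xTIL09 peaks on chromosome 6 at 14.8%, 15.3% and 14.6%, and Mo17xTIL14 stays at 2.19 to 2.94% there.

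Few genes were called between the Mo17 F1s and the F1s of the other inbreds once the teosinte parent was taken into account. With the cross as the unit, edgeR called 1 of 6987 ear genes (0.0143%), 8 of 5354 leaf genes (0.149%) and 8 of 5670 stem genes (0.141%), which were 11 genes in all. The Mo17 allele was relatively lower in 9 of these genes and relatively higher in 2, GRMZM2G015364 and GRMZM2G095931, both in stem. At an FDR of 0.05 the calls numbered 7 (0.1%) for ears, 16 (0.299%) for leaves and 19 (0.335%) for stems, and 4, 15 and 14 of them were lower in Mo17. An unadjusted p under 0.05 was reached by 355 ear, 310 leaf and 452 stem genes, and DESeq2 called 39, 31 and 48 genes at an FDR of 0.005.

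The files and the reference table give no symbol for any of these 11 genes, and they are described by their reads. None of them was called as differing among the teosinte parents of the Mo17 F1s in a tissue where it was called here. The Mo17 crosses did not overlap the crosses of the other inbreds in 16 of the 17 calls, the exception being GRMZM2G095955 in leaf. Over all tested genes there was no overlap in 423 of 6987 (ear), 65 of 5354 (leaf) and 93 of 5670 (stem). The calls were made on this same difference, so their lack of overlap adds no separate evidence. The 3 Mo17 crosses share 1 Mo17 haplotype, and the p-values measure the spread between crosses. Whether sites lie in coding sequence or in UTRs was not assigned, and the spans given are those of the segregating sites in the B73 AGPv2 coordinates of the files, not of whole genes.

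GRMZM2G172330, with sites on chromosome 2 from 219804189 to 219806962, was the gene called in every tissue, and its Mo17 allele was nearly absent. In stem the Mo17 allele had 0 reads and the teosinte allele 71 (Mo17xTIL01), 244 (Mo17xTIL09) and 104 (Mo17xTIL14). In leaf the reads were 0 and 35, 0 and 158, and 0 and 35 for the same crosses, and in ear 1 and 314 for Mo17xTIL09 and 0 and 105 for Mo17xTIL14. In crosses of the other inbreds the maize share was 35.3% at the lowest, 50.3% at the median and 56.1% at the highest of 10 crosses in stem, and all 3 Mo17 crosses lay below that range.

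Against a floor of 3 reads over the group, the teosinte allele of GRMZM2G172330 was at least 139.7-fold higher than the Mo17 allele in stem and at least 76.0-fold higher in leaf. In ear the Mo17 share was 0.238% (exact 95% interval 0.00603 to 1.32%, counting error only). The difference between Mo17 and other inbreds had an FDR of 4.68e-05 (ear), 0.000518 (leaf) and 3.94e-06 (stem). The Mo17 inbred itself had 0 or 1 reads in every tissue at the sites of each cross, against 14 to 246 in the teosinte inbreds. Without the B73 crosses the call was lost in ear (FDR 0.00516) and in leaf (FDR 0.0183), and the leaf call also at the deepest site, whereas the stem call was kept under all 19 alternatives.

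GRMZM2G049021 (chromosome 5, 133623869 to 133626170) showed the same kind of pattern in leaf and stem. In leaf the Mo17 allele had 2, 3 and 0 reads against 418, 173 and 20 reads of the TIL01, TIL09 and TIL14 alleles, and in stem 7, 0 and 0 against 386, 220 and 25. The maize share over the Mo17 crosses was 0.812% in leaf (exact 95% interval 0.264 to 1.88%) and 1.1% in stem (0.442 to 2.25%). In crosses of the other inbreds it ran from 33.2 to 72.7% in leaf (median 45.4%, 8 crosses) and from 47.0 to 71.7% in stem (median 50.8%, 8 crosses), well clear of every Mo17 cross.

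The log2 difference for GRMZM2G049021, Mo17 minus other inbreds, was −6.35 ± 0.42 in leaf with an FDR of 0.000134 and −6.63 ± 0.56 in stem with an FDR of 0.000632. The value after ±, here and below, is the size of the estimate divided by the square root of the test's F. It is an approximate standard error, and for an allele near 0 reads it may fall short of the counting error. In ear the values pointed the same way, with 2 and 0 Mo17 reads against 245 and 21 teosinte reads, at an FDR of 0.00924. The Mo17 inbred had 0 reads in all tissues, against 162 to 280 reads of TIL01 or TIL09 and 9 to 25 reads of TIL14. The stem call missed the threshold without the Oh43 crosses (FDR 0.0109).

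GRMZM2G170016 and GRMZM2G310069 were thinner cases of an absent Mo17 allele. GRMZM2G170016 (chromosome 5, 188852203 to 188853072) had 0 Mo17 reads in stem against 21, 130 and 122 reads of the TIL01, TIL09 and TIL14 alleles, so the teosinte allele was at least 91.0-fold higher over the group, while 9 crosses of the other inbreds had maize shares of 16.7 to 51.9% (FDR of the difference 0.00256). GRMZM2G310069 (chromosome 3, 148098661 to 148100384) had 0, 0 and 2 Mo17 reads in leaf against 14, 41 and 86 teosinte reads, while 9 crosses of the other inbreds had maize shares of 19.4 to 55.3% (FDR 0.00191). The Mo17 inbred had 0 reads of either gene in every tissue. GRMZM2G170016 lost its call without the Mo17xTIL14 stem replicate 2 and without the crosses of any 1 of the other inbreds (highest FDR 0.0121), and GRMZM2G310069 without the B73 crosses (FDR 0.0263).

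In GRMZM2G153977 the Mo17 allele was low but present. This gene (chromosome 8, 70997349 to 70998915) had Mo17 and teosinte reads of 11 and 125, 49 and 509, and 29 and 171 in the stems of Mo17xTIL01, Mo17xTIL09 and Mo17xTIL14, which are maize shares of 8.09, 8.78 and 14.5%. The 10 crosses of the other inbreds had shares of 45.3 to 53.9% in stem with a median of 50.8%. The log2 difference was −3.10 ± 0.20 in stem (FDR 1.20e-05) and −2.50 ± 0.25 in leaf (FDR 0.000518), and in ear, where Mo17 crosses had 9.13 and 9.75% of maize reads against 35.4 to 53.5% in the others, it was −3.02 ± 0.29 with an FDR of 0.00924. The inbred parents leaned the same way in stem, with 21, 72 and 36 Mo17 reads against 174, 659 and 171 teosinte reads at the sites of the 3 crosses. The stem call was kept under all 19 alternatives, and the leaf call was lost without Mo17xTIL14 leaf replicate 2 (FDR 0.0140), without the B73 crosses and with libraries of any maize share.

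GRMZM2G478212 (chromosome 1, 105460808 to 105470990) was called in leaf, where Mo17 reads of 15, 9 and 38 stood against teosinte reads of 171, 55 and 226 and maize shares were 8.06 to 14.4%, against 31.9 to 57.8% in 10 crosses of the other inbreds. Its log2 difference was −2.77 ± 0.34 with an FDR of 0.00241, and the call was lost under 7 of 19 alternatives, among them those without Mo17xTIL01 leaf replicate 1 or Mo17xTIL14 leaf replicate 2 (highest FDR of these 0.0209). In stem its maize share was low in the other crosses too, at 14.3 to 36.2%, and the Mo17 crosses at 0 to 27.8% overlapped them (FDR 0.382). GRMZM2G095955 (chromosome 8, 123149369 to 123151527) had maize shares of 16.6 to 32.7% in leaf and 21.5 to 31.1% in stem in Mo17 crosses, against 29.0 to 59.2% and 37.2 to 60.6% in crosses of the other inbreds. Its log2 differences were −1.27 ± 0.16 in leaf (FDR 0.00262) and −1.49 ± 0.20 in stem (FDR 0.00499), and the calls were lost under 6 of 20 alternatives in leaf and 12 of 20 in stem, 3 of these 12 being without 1 Mo17 library each.

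For GRMZM2G411536 and GRMZM2G000166 the parents did not show what the F1s showed. GRMZM2G411536 (chromosome 3, 111556753 to 111570916) had maize shares of 30.5 to 34.3% in leaf and 26.4 to 33.0% in stem in Mo17 crosses, against 47.6 to 57.9% and 44.7 to 60.0% in the other crosses, with log2 differences of −1.21 ± 0.15 (FDR 0.00221) and −1.26 ± 0.14 (FDR 0.00152). The parents of these crosses lay near equality, with log2 ratios of the Mo17 to the teosinte inbred between −0.41 and 0.06 in leaf and stem. GRMZM2G000166 (chromosome 2, 13712141 to 13712647), with 0 reads in ears and 1 Mo17 and 6 teosinte reads in stems of the Mo17 F1s, had in leaf 453 Mo17 and 1116 teosinte reads, a maize share of 27.0 to 30.9% by cross against 49.3 to 58.6% in 9 other crosses, and a log2 difference of −1.53 ± 0.18 (FDR 0.00181). Its leaf parents had log2 ratios of 0.36 (TIL01), 1.80 (TIL09) and 1.23 (TIL14), all toward Mo17.

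Both genes also depended on which sites were read. At the deepest site alone the difference was −0.09 for GRMZM2G000166 in leaf, which was not called (FDR 0.9999), and −7.63 in leaf and −7.07 in stem for GRMZM2G411536, which was. With the sites shared with other crosses GRMZM2G411536 missed the threshold in leaf and stem, and in leaf also without Mo17xTIL01 replicate 1 or Mo17xTIL14 replicate 2 (highest FDR of these 0.00848). In all, the calls were lost under 5 of 20 alternatives for GRMZM2G000166 and, for GRMZM2G411536, under 7 of 20 in leaf and 5 of 20 in stem.

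The 2 genes with a relatively higher Mo17 allele differed in their levels. GRMZM2G015364 (chromosome 3, 226174012 to 226175882) was read about equally from the alleles in ears and stems of Mo17 crosses, whereas its maize allele was nearly absent in the others. In stem it had 59 Mo17 and 42 teosinte reads in Mo17xTIL01, 100 and 111 in Mo17xTIL09, and 150 and 123 in Mo17xTIL14, against 7 maize and 355 teosinte reads over 9 crosses of the other inbreds, whose maize shares were 0 to 5.88%. The log2 difference was 5.65 ± 0.46 (FDR 0.000223), and the ear values pointed the same way with maize shares of 46.9 and 56.9% against 0 to 6.67% (FDR 0.00924). In leaf the Mo17 crosses ranged wider, with 61 Mo17 reads against 14 in Mo17xTIL01, 58 against 59 in Mo17xTIL09 and 87 against 63 in Mo17xTIL14. The Mo17 inbred had 31 to 141 reads at the sites of its crosses over the 3 tissues.

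GRMZM2G095931 (chromosome 1, 215443778 to 215447558) was instead raised above equality in Mo17 crosses. Its Mo17 and teosinte reads in stem were 89 and 25, 66 and 14, and 233 and 76, which are maize shares of 78.1, 82.5 and 75.4%, against 42.7 to 71.4% with a median of 47.7% in 10 crosses of the other inbreds. The log2 difference was 1.76 ± 0.21 with an FDR of 0.00256. Every Mo17 cross was above every other cross in stem and in ear (FDR in ear 0.0330), but not in leaf, where 1 of the other crosses reached 93.3%. The Mo17 inbred had more reads than the teosinte inbred for all crosses and tissues, with log2 ratios of 1.52 to 3.84. The stem call was lost under 7 of 19 alternatives, among them those without Mo17xTIL09 stem replicate 1 or Mo17xTIL14 stem replicate 2 (highest FDR of these 0.00764).

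**Figure D3:**
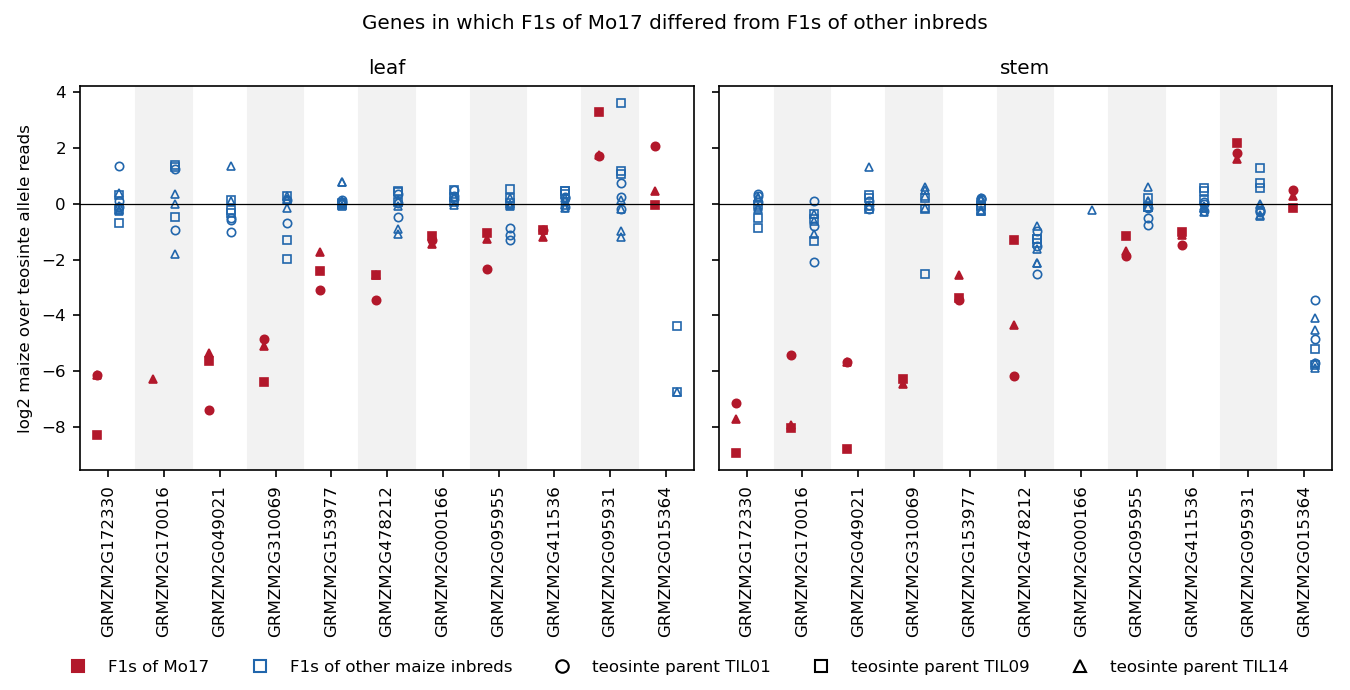
Log2 ratio of maize to teosinte allele reads for the 11 genes called between F1s of Mo17 (filled red, left in each column) and F1s of other maize inbreds (open blue, right), in leaf and stem; each point is 1 cross with at least 10 reads and its shape gives the teosinte parent. The Mo17 points of GRMZM2G172330 lie below −6 while the other crosses lie between −1 and 2, and those of GRMZM2G015364 lie near or above 0 while the other crosses lie below −3.

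Among the Mo17 F1s themselves the allele ratio often differed between crosses by different teosinte parents. Each cross was read at its own segregating sites (71518 for Mo17xTIL01, 88622 for Mo17xTIL09 and 66895 for Mo17xTIL14). The teosinte parent and the sites read therefore cannot be told apart here, and no test on sites shared by these crosses was made. This test used libraries and the one above used crosses, so their counts of genes are not on 1 scale. Allele ratios differed among the teosinte parents in 578 of 7901 ear genes (7.32%), 373 of 6815 leaf genes (5.47%) and 599 of 6905 stem genes (8.67%), and 183 genes were called in all tissues. The median range of the log2 ratio over the parents in these genes was 2.63 (ear), 4.19 (leaf) and 3.22 (stem). The crosses had log2 ratios of opposite sign in 346 (ear), 265 (leaf) and 454 (stem) of the called genes. TIL09 was most often the parent farthest from the others, in 135 of the leaf genes and 232 of the stem genes, against 127 and 188 for TIL01 and 111 and 179 for TIL14.

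Several of the genes with the widest range had a single silent allele. GRMZM2G179703 (chromosome 1, 202919336 to 202921596) had no TIL09 reads at all: in leaf the Mo17 allele had 775 and 930 reads in the Mo17xTIL09 libraries against 0 of TIL09, while the Mo17xTIL01 libraries had 289 and 23 Mo17 reads against 313 and 35 and the Mo17xTIL14 libraries 356 and 9 against 162 and 11. The fitted range was 12.9 in leaf (FDR 2.18e-08), 9.14 in ear and 10.9 in stem. HP1 (GRMZM2G016439, chromosome 1, 205219473 to 205222555) likewise had 380 and 468 Mo17 reads against 0 TIL09 reads in stem and 123, 147 and 181 against 0 in ear, and in Mo17xTIL14 ears it had 26 and 24 Mo17 reads against 15 and 39. A fitted ratio with an allele at 0 rests on the fit's prior count, so the reads carry these comparisons.

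In GRMZM2G141208 (chromosome 6, 146500291 to 146503934) the direction turned with the teosinte parent among the Mo17 crosses. In stem the Mo17 reads were 47 and 53 against 0 in the Mo17xTIL01 libraries, 2 and 1 against 59 and 43 in Mo17xTIL09, and 92 and 82 against 53 and 73 in Mo17xTIL14 (range 13.7, FDR 5.55e-08). The same Mo17 haplotype was thus the main allele beside TIL01, the minor allele beside TIL09 and close to equal beside TIL14, although each cross reads it at its own sites, of which Mo17xTIL01 and Mo17xTIL09 had 1 each. In ear, which had no Mo17xTIL01 library, both crosses had more teosinte reads, with 0 Mo17 reads against 73, 62 and 42 of TIL09, and 79 and 99 against 85 and 111 of TIL14. Crosses of the other inbreds by these teosinte parents showed no such spread. Their maize shares were 48.1 to 61.9% in stem (10 crosses) and 40.9 to 57.6% in ear (7 crosses). Mo17 crosses had 2.86 to 100% in stem. Whether the teosinte parent or the sites read made this difference was not tested.

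GRMZM2G442129 (chromosome 9, 68025251 to 68028199) and GRMZM2G161868 (chromosome 3, 202363355 to 202365652) also split by parent. GRMZM2G442129 had 27, 23 and 54 Mo17 reads against 0 TIL09 reads in ear, but 0 Mo17 reads against 10 and 8 TIL14 reads. The Mo17 allele itself thus went from read to unread between these crosses. Mo17xTIL09 had 15 sites in this gene and Mo17xTIL14 had 12, and whether the sites read made the split was not tested. GRMZM2G161868, which the RefSeq table lists as a pseudogene, had 81, 105 and 85 Mo17 reads against 149, 161 and 94 TIL09 reads in ear and 260 and 225 Mo17 reads against 0 TIL14 reads (range 11.4, FDR 3.73e-13). GRMZM5G811797 in ear and GRMZM2G340319 in leaf showed such splits on fewer reads, at most 54 reads of an allele in a library. Crosses of the other inbreds had maize shares of 41.7 to 63.3% for GRMZM5G811797 in ear (5 crosses). For GRMZM2G340319 in leaf they had 2.44 to 54.3% (6 crosses).

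Among genes of benzoxazinoid synthesis, bx9 differed among the teosinte parents in all 3 tissues. Benzoxazinoids are defence compounds of maize and its relatives that are made from indole in young tissues and stored as glucosides. Of 12 listed genes 5 (ear) and 2 (leaf and stem) had segregating sites in all Mo17 crosses. Enough reads to be tested were present for 4 in ear and 2 each in leaf and stem. In the test of the Mo17 allele against the teosinte allele, bx9 was higher in ear and bx4 and bx9 in leaf and stem, and in the test among teosinte parents 3 genes were called in ear, 1 in leaf and 2 in stem. Over all tested genes the Mo17 allele was higher in 10%, 7.29% and 10.3%, and 7.32%, 5.47% and 8.67% differed among parents, and with 2 to 4 genes tested the list allows no more than this count. Their median log2 ratio was 0.29 (ear), 1.22 (leaf) and 1.24 (stem), beside 0.04, 0.06 and 0.06 over all tested genes.

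bx9 (GRMZM2G161335, chromosome 1, 180307173 to 180308507), a glucosyltransferase that adds glucose to benzoxazinoids, had few or no TIL09 reads in Mo17xTIL09. Its maize share there was 100% (ear), 97.8% (leaf) and 98.7% (stem). In crosses of the other inbreds it reached at most 93.0% (ear), 88.5% (leaf) and 88.8% (stem). Its Mo17 reads in stem were 978 and 564 against 19 and 2 in the Mo17xTIL09 libraries, 802 and 1154 against 949 and 1344 in Mo17xTIL01, and 897 and 878 against 1044 and 1259 in Mo17xTIL14. In ear it had 58, 25 and 72 Mo17 reads against 0 TIL09 reads, and 85 and 130 against 75 and 132 TIL14 reads. So the mean log2 ratios of 4.39 ± 0.35 (ear), 1.55 ± 0.12 (leaf) and 1.88 ± 0.11 (stem) came from 1 cross: in leaf and stem the teosinte allele had more reads than Mo17 in every library of both other crosses. On reads summed over crosses the ratio was 0.84 (ear), 0.04 (leaf) and 0.19 (stem), and the leaf call was lost (FDR 0.209). The range over the parents was 8.65 for ears, 5.83 for leaves and 6.60 for stems (FDR 6.35e-09, 1.16e-08 and 1.08e-11).

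bx1 (GRMZM2G085381, chromosome 4, 3256926 to 3258370), the enzyme that makes free indole for the pathway, had no segregating site in Mo17xTIL01 and entered the test in ear alone. In stem its Mo17 reads were 3420 and 3365 against 1663 and 944 TIL09 reads, and 1252 and 2172 against 19 and 47 TIL14 reads. In leaf they were 579 and 426 against 268 and 92 TIL09 reads, and 522 and 55 against 1 and 0 TIL14 reads. The Mo17 allele thus had more reads in every leaf and stem library of both crosses. In ear, on few reads, it had 11, 6 and 17 Mo17 reads against 32, 16 and 29 TIL09 reads and 4 and 17 against 2 and 3 TIL14 reads, and the call among teosinte parents there (range 3.18, FDR 0.00433) was lost under all 6 alternatives (FDR 0.00501 to 0.0235).

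bx4 (GRMZM2G172491, chromosome 4, 3046690 to 3048807), a cytochrome P450 of the pathway, had a higher Mo17 allele in leaf, 0.88 ± 0.13 on the log2 scale (FDR 0.000211), and in stem, 0.60 ± 0.05 (FDR 1.66e-07). In stem its Mo17 reads were 518 and 366 against 337 and 252 of TIL01, 2084 and 2948 against 2019 and 2568 of TIL09, and 314 and 547 against 159 and 242 of TIL14, so the Mo17 allele was ahead in all 6 libraries. The size of the difference depended on the parent (range 0.96, FDR 0.000126). In ear the teosinte allele had more reads in all 5 libraries, at −0.76 ± 0.26 with an FDR of 0.0324. bx3 (GRMZM2G167549, chromosome 4, 2998781 to 2999638), another P450 of the pathway, was called among parents in ear (range 3.48, FDR 0.00337) on 2, 5 and 9 Mo17 reads against 0, 3 and 1 of TIL09 and 19 and 16 against 50 and 55 of TIL14, and that call was lost under 3 of 7 alternatives, among them that without Mo17xTIL09 ear replicate 3 (FDR 0.0772).

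Of 14 listed genes of starch and sucrose metabolism 7 were tested for ears, 5 for leaves and 7 for stems. The Mo17 allele was higher in 3, 2 and 3 of them and lower in 1 in each tissue, and 1 differed among the teosinte parents in each tissue. Over all tested genes the Mo17 allele was higher in 10%, 7.29% and 10.3% and lower in 5.78%, 3.46% and 5.59%, and 7.32%, 5.47% and 8.67% differed among parents. Their median log2 ratio was 0.11 (ear), 0.50 (leaf) and −0.11 (stem).

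du1 (GRMZM2G141399, chromosome 10, 59506781 to 59518224), a starch synthase, was the gene of this list that turned with the teosinte parent. In stem its Mo17 reads were 24 and 46 against 0 TIL01 reads, 155 and 41 against 1 and 0 TIL09 reads, and 145 and 89 against 211 and 174 TIL14 reads. In ear they were 39, 48 and 62 against 0 TIL09 reads, and 75 and 87 against 163 and 251 TIL14 reads. The Mo17 allele was nearly the only one read beside TIL01 and TIL09 and the lower one beside TIL14. The ranges of 10 (ear), 6.51 (leaf) and 8.98 (stem) had FDRs of 8.41e-11, 1.53e-05 and 1.15e-08, and the call of a higher Mo17 allele averages crosses of opposite sign: on reads summed over crosses the ear ratio was −0.41 in place of 3.66, and the leaf ratio was 0.05 in place of 2.88 and not called (FDR 0.344). The leaf call among parents was lost without Mo17xTIL14 leaf replicate 1 (FDR 0.00633).

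sbe1 (GRMZM2G088753, chromosome 5, 63318759 to 63324260), a starch branching enzyme, had a higher Mo17 allele in every library. The log2 ratio was 1.16 ± 0.08 (ear), 0.90 ± 0.11 (leaf) and 0.91 ± 0.09 (stem) (FDR 1.20e-10, 3.49e-05 and 2.73e-07), and in ear the Mo17 reads were 223, 278 and 319 against 140, 117 and 192 of TIL09 and 329 and 452 against 126 and 158 of TIL14. The RefSeq table pairs this identifier with 2 loci, and at its deepest site alone the leaf and stem calls were lost (FDR 0.662 and 0.0265). Another starch branching enzyme, ae1 (GRMZM2G032628, chromosome 5, 168451727 to 168468333), went the other way in stem, at −1.35 ± 0.20 (FDR 6.81e-05), with 15, 7, 10, 6, 28 and 36 Mo17 reads against 29, 13, 37, 29, 67 and 69 teosinte reads. In ear it had −0.37 ± 0.14 with an FDR of 0.0483.

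The sucrose synthases sh1 and sus1 differed in direction. sh1 (GRMZM2G089713, chromosome 9, 11496057 to 11501870) had a higher Mo17 allele in ear, 0.54 ± 0.05 (FDR 2.39e-08), and in stem, 0.94 ± 0.05 (FDR 4.67e-10), and 0.50 ± 0.13 in leaf with an FDR of 0.0114. sus1 (GRMZM2G152908, chromosome 9, 122220238 to 122226724) had a lower Mo17 allele in ear, −0.23 ± 0.05 (FDR 0.000697), and in leaf, −0.64 ± 0.10 (FDR 0.000166), and −0.11 ± 0.03 in stem with an FDR of 0.00955. The ear call of sh1 was lost at the deepest site (FDR 0.0601), and that of sus1 without either Mo17xTIL14 ear library (highest FDR 0.0234). The leaf call of sus1 was lost without Mo17xTIL09 leaf replicate 1 (FDR 0.00758).

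**Figure D4:**
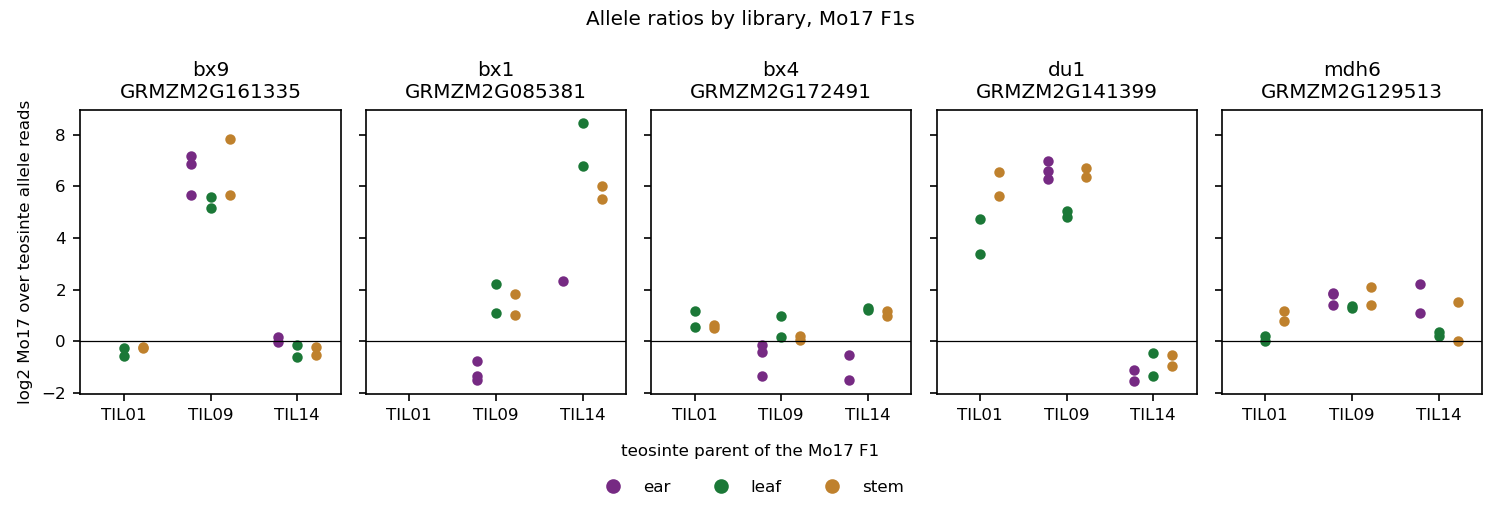
Log2 ratio of Mo17 to teosinte allele reads in each Mo17 F1 library with at least 10 reads of the gene, by teosinte parent, for bx9, bx1, bx4, du1 and mdh6; colours give ear, leaf and stem. The TIL09 points of bx9 lie above 5 and those of TIL01 and TIL14 near 0, and the TIL14 points of du1 lie below 0 while those of TIL01 and TIL09 lie above 3.

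mdh6 (GRMZM2G129513, chromosome 1, 203170265 to 203172991), the malate dehydrogenase of the C4 cycle, was the gene called among the 8 listed genes of the C4 cycle and Rubisco, of which 2 were tested in ear and leaf and 3 in stem. Its Mo17 allele was higher by 1.70 ± 0.24 (ear), 0.58 ± 0.06 (leaf) and 1.11 ± 0.20 (stem) on the log2 scale (FDR 8.02e-06, 5.71e-06 and 0.000331). In leaf the size followed the teosinte parent (range 1.22, FDR 5.79e-05): Mo17 reads were 1264 and 3039 against 1094 and 2974 of TIL01, 1118 and 726 against 433 and 292 of TIL09, and 217 and 1445 against 170 and 1236 of TIL14. At the deepest site mdh6 lost its calls in leaf (FDR 0.485 for the allele ratio and 0.211 among parents) and in stem (FDR 0.0154), and the leaf call among parents was also lost without Mo17xTIL09 leaf replicate 1 (FDR 0.00636).

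The other lists gave no call. Among 10 genes of flowering time and the clock 3 were tested in each tissue, the gigantea homologs gigz1a (GRMZM2G107101) and gigz1b (GRMZM5G844173) and the CONSTANS homolog conz1 (GRMZM2G405368), with log2 ratios of −0.18 to 0.46 and FDRs of 0.0382 or more. Among 16 genes of inflorescences and meristems, fea2 (GRMZM2G104925) and ct2 (GRMZM2G064732), which act in meristem size, had log2 ratios of −0.11 to 0.50 and FDRs of 0.0560 or more. No gene of the anthocyanin list (12 genes), the lignin list (6 genes) or the domestication list (8 genes, with tb1 and tga1) had enough reads at sites of all Mo17 crosses to be tested. No listed gene was called between the Mo17 F1s and the F1s of the other inbreds: 13 were tested for ears, 9 for leaves and 14 for stems. Over all genes 0.0143%, 0.149% and 0.141% were called in that comparison, so a count of 0 among so few genes is at the background.

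Few genes were called as differing across tissues in the allele ratio of the Mo17 F1s. A gene without a call was not shown to be alike across tissues, and 112 genes had an FDR under 0.05. In the crosses present in all tissues, Mo17xTIL09 and Mo17xTIL14, edgeR called 23 of 6614 genes (0.348%), with a median range over the tissues of 1.69, and 805 genes had an unadjusted p under 0.05. DESeq2 called 61.

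In the leading genes the ear stood apart or the leaf did. GRMZM2G112210 (chromosome 2, 90378101 to 90380166) was read almost only from the teosinte allele in ear, with 17, 3 and 6 Mo17 reads against 299, 317 and 453 of TIL09 and 1 and 1 against 24 and 42 of TIL14. In leaf its Mo17 reads were 18 and 249 against 22 and 398 of TIL09 and 21 and 0 against 42 and 0 of TIL14. In stem they were 250 and 11 against 451 and 39 of TIL09 and 39 and 2 against 72 and 16 of TIL14. Every ear library had a lower log2 ratio than every leaf and stem library with reads, and the log2 ratio was higher than in ear by 4.65 in leaf and 4.27 in stem (FDR 1.16e-07).

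GRMZM2G354867 (chromosome 10, 142400452 to 142403269) was read mainly from the Mo17 allele in leaf, with 26 and 45 Mo17 reads against 3 and 7 of TIL09 and 8 and 10 against 0 and 1 of TIL14. In ear it had 24, 17 and 50 against 71, 58 and 69 of TIL09 and 38 and 38 against 43 and 40 of TIL14, and in stem 59 and 29 against 49 and 29 of TIL09 and 11 and 13 against 9 and 18 of TIL14. The leaf was above ear by 3.87 and the stem by 0.87 (FDR 0.000135), and every leaf library lay above every ear and stem library.

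GRMZM2G088689 (chromosome 10, 15547404 to 15550752) had a low Mo17 allele in ear, with 7, 3 and 12 reads against 235, 266 and 422 of TIL09 and 18 and 59 against 159 and 173 of TIL14. In leaf the alleles were close to equal, with 22 and 31 Mo17 reads against 32 and 44 of TIL09 and 35 and 48 against 37 and 42 of TIL14, and in stem it had 77 and 97 against 125 and 229 of TIL09 and 56 and 47 against 139 and 203 of TIL14. The log2 ratio was above ear by 3.39 in leaf and 2.32 in stem (FDR 0.00140), and that call was lost without any 1 of the 3 Mo17xTIL09 ear libraries (highest FDR 0.00786).

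**Figure D5:**
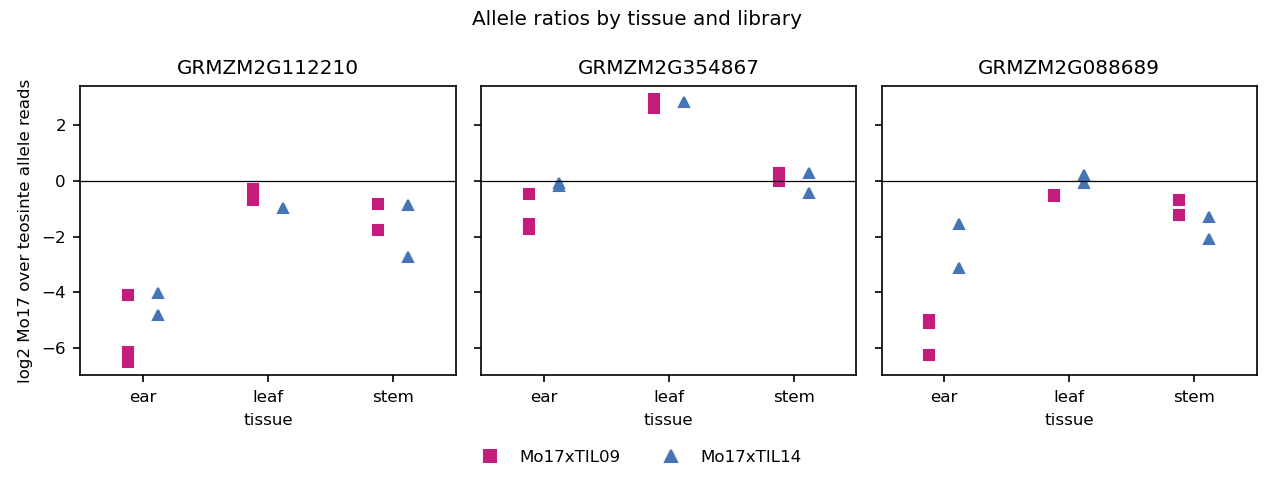
Log2 ratio of Mo17 to teosinte allele reads by tissue for the 3 genes with the widest range over the tissues among those called; each point is 1 library with at least 10 reads of the gene, with squares for Mo17xTIL09 and triangles for Mo17xTIL14. Ear points of GRMZM2G112210 lie below −4 and its leaf points above −1, and the leaf points of GRMZM2G354867 lie above 2.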

How the data were processed

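RNA of ears, leaves and stems was sequenced in F1 hybrids and their inbred parents. The authors built a pseudo-transcriptome for each parent on B73 AGPv2, aligned reads with Bowtie (version not given in the sources used here) keeping perfect matches, and deposited counts of reads of each parental allele at segregating sites, with no normalization. Perfect matching to both parents bears on allele ratios, since a read that carries an unlisted difference could be lost from its allele alone. The Mo17 allele was the B73 base at 62.1 to 63.6% of sites and the teosinte allele at 36.1 to 37.7%. Whether this shifted the allele counts was not tested. The paper states that it could not exclude an artifact behind its own excess of higher maize alleles.

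Groups came from the titles and labels. Lanes of a library were summed and each site was counted once per gene, so a read over several sites was counted at each of them. A gene was tested with at least 100 reads over the Mo17 crosses and at least 10 in each. edgeR's quasi-likelihood test (edgeR 4.0.16, R 4.3.3) compared the alleles with the library as a block and equal library sizes for both alleles. Differences among teosinte parents and among tissues were tested likewise. Mo17 F1s were compared with other inbreds' F1s on sums per cross, with the teosinte parent in the model. Genes there also needed at least 10 reads in at least 2 other crosses per teosinte parent. Other crosses with fewer reads stayed in the fit, while the printed shares and ranges over crosses leave them out. Calls used a Benjamini-Hochberg FDR of 0.005. Plotted log2 ratios used a pseudocount of 0.5. Exact binomial intervals (95%) and the floor of 3 reads cover counting error only. Values after ± were derived from the estimate and the test's F, not taken from the fit as standard errors.

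Genes were named by rule: per tissue, among genes called between Mo17 and other inbreds with all Mo17 crosses on 1 side of the other crosses' mean, the 5 largest differences in each direction; up to 10 called in all tissues; listed genes called there or among teosinte parents; bx1 and the study's domestication genes that passed the filter; per tissue the 3 widest ranges among teosinte parents; and the 3 widest among tissues. The listed genes sbe1, ae1, sh1 and sus1, the tested but uncalled listed genes and the chromosomes described were singled out after their values were seen. The members and lists were chosen with earlier results of these data known. Of 42967 gene models 15790 were matched to RefSeq (Zm-B73-REFERENCE-NAM-5.0), used for names only. Alternatives were DESeq2 1.42.0, TMM scaling, other depth minimums and FDRs, the deepest or shared sites, a binomial test, libraries in place of crosses, a replicate block, and leaving out libraries or an inbred's crosses. Scripts were tested on simulated data. The labels call the replicates biological, and p-values measure the spread between these libraries or crosses. Same-numbered libraries of different crosses did not deviate together (r −0.05 to 0.08 over 14 pairs), so replicate numbers were not taken as pairing. In leaf and stem each cross had 2 libraries and both replicates gave the same r, so the 14 values are not independent.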

Additional observations from a re-analysis of the deposited data

Results flagged for a closer look

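In F1s of the other inbreds, 1 cross stood far above the rest in 2 of the 17 gene and tissue groups of crosses examined, where chance gives about 1 in 20: the log2 ratio of GRMZM2G172330 was 1.36 in Oh43xTIL01 leaves, and that of GRMZM2G049021 was 1.31 in B73xTIL14 stems. The maize share and the reads of the Mo17 libraries were examined in 3 tissues too, and no library stood apart.

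The following genes differed among the teosinte parents of the Mo17 F1s by the test of that difference, and the values are ranges of the fitted log2 ratio over the parents. Where an allele had 0 reads the range rests on the prior count and is no bound. GRMZM2G442129 had ranges of 14.3 in ear, where DESeq2 did not call it (FDR 0.0169), and 15.0 in stem. GRMZM2G141208 had 8.77 (ear), 15.0 (leaf) and 13.7 (stem), and its leaf call was lost without Mo17xTIL09 leaf replicate 2 (FDR 0.0105) and with DESeq2 (FDR 0.0196). GRMZM2G340319 had 13.5 in leaf, and DESeq2 did not call it (FDR 0.471). GRMZM2G179703 had 9.14 in ear, 12.9 in leaf and 10.9 in stem. HP1 had 10.3 in ear and 12.2 in stem, GRMZM5G811797 had 11.9 in ear and GRMZM2G161868 had 11.4 in ear. Among listed genes, du1 had 9.9996 (ear), 6.51 (leaf) and 8.98 (stem), and bx9 had 8.65 (ear), 5.83 (leaf) and 6.60 (stem). Smaller ranges were those of bx3 (3.48) and bx1 (3.18) in ear, mdh6 in leaf (1.22) and bx4 in stem (0.96). GRMZM2G088689 had 3.23 in ear, and that call was lost without Mo17xTIL14 ear replicate 2 (FDR 0.00572).

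Among the tissues of the Mo17 F1s, the allele ratio differed by the test of that difference over a log2 range of 4.65 for GRMZM2G112210, 3.87 for GRMZM2G354867 and 3.39 for GRMZM2G088689.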

How the results depend on the processing

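Counts of called genes are given as ear, leaf and stem. For the Mo17 allele against the teosinte allele they were 2208, 1510 and 2016 at an FDR of 0.05, 408, 293 and 468 at a minimum depth of 1000, 2627, 2517 and 2637 with a binomial test on summed reads, and 746 in ear at the deepest site. Leaving out single Mo17 libraries gave 649 to 1141, 352 to 545 and 756 to 988, the low values being without Mo17xTIL14 ear replicate 1 (724) or 2 (649) and without Mo17xTIL09 leaf replicate 1 (352) or 2 (374). The median log2 ratio was 0.03 in ear at the deepest site (0.0255) and 0.04 in leaf (0.0441) and stem (0.0426) at a minimum depth of 1000, and 0.03 to 0.04, 0.05 to 0.06 and 0.05 to 0.06 without single libraries. Among teosinte parents the counts were 1059, 816 and 1114 at an FDR of 0.05, 170, 152 and 255 at a depth of 1000, and 299 to 525, 184 to 311 and 439 to 581 without single libraries (332 and 299 without Mo17xTIL14 ear replicate 1 or 2, 184, 188 and 247 without Mo17xTIL09 leaf replicate 1 or 2 or Mo17xTIL01 leaf replicate 1). Of the named results the one that turned was du1 in ear, at −0.41 with the binomial test.

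For Mo17 against other inbreds the counts were 7, 16 and 19 at an FDR of 0.05, 39, 31 and 48 with DESeq2, 0, 3 and 1 at a depth of 1000, and 57, 22 and 45 with libraries in place of cross sums. In ear there were 2 with no minimum depth, 3 at the deepest site and 2 at shared sites, and in leaf 4 at the deepest site and 4 at shared sites. Libraries of any maize share gave 4 in leaf and 5 in stem. There were 0, 0 and 3 without the B73 crosses, 4 in leaf and 4 in stem without Ki3, 2 in stem without Oh43, and 3 in leaf and 5 in stem without W22. Without single Mo17 libraries there were 1 to 1, 3 to 8 and 5 to 9, with 5 and 3 in leaf without Mo17xTIL01 replicate 1 or Mo17xTIL14 replicate 2 and 5 in stem without Mo17xTIL14 replicate 2. Of 307 alternatives to the 17 named calls 244 kept the call and direction, and in the other 63 the call was lost with the direction kept. The tissue counts were 112 at an FDR of 0.05, 61 with DESeq2, 39 with no minimum depth, 2 at a depth of 1000 and 11 to 26 without single libraries (11, 11 and 13 without Mo17xTIL09 ear replicates 1 to 3, 15 without Mo17xTIL09 stem replicate 2, 13 without Mo17xTIL14 stem replicate 2). The cause of these shifts was not tested.

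Replicate numbers share only a number here. With a replicate block the counts were 1507, 756 and 939 for the allele ratio, 643, 388 and 489 among teosinte parents, 20 among tissues, and, with libraries and the replicate block, 41, 19 and 41 for Mo17 against other inbreds.

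Depth limited the genes that could be compared: the median tested gene had 454 (ear), 564 (leaf) and 611 (stem) reads over the Mo17 crosses.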
